A study of Mus musculus with 23 samples.

Results

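Livers of male mice labelled IL-10/4 dKO were compared with livers of male mice labelled IL-4 KO, both kept on normal chow, by sequencing of polyadenylated RNA. The comparison holds 8 of the 23 samples of the series, 4 in each group, taken by the sample titles, and it is described across all genes. All mice were C57Bl/6, came from Taconic at 6 to 8 weeks of age, and were fed for 15 weeks, after which 10 to 20 mg of each perfused liver was used for RNA. Both groups carry the IL-4 knockout, so the label that separates them is the IL-10 knockout. The labels do not say whether the mice were littermates or give the structure of either knockout allele. The other samples are used only beside this comparison: wild type mice on chow (4), and wild type (4), IL-4 KO (3) and IL-10/4 dKO (4) mice fed a diet with 60% of its energy from fat. Below, dKO_chow, IL4KO_chow and WT_chow name the libraries labelled IL-10/4 dKO, IL-4 KO and wild type on normal chow, and the ending HFD marks the high-fat diet. The design text counts each sample as 1 mouse, so the spread within a group is a spread between animals.

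IL-4 is the cytokine of type 2 immunity and turns macrophages towards repair, whereas IL-10 limits the inflammatory output of macrophages and other leukocytes through its receptor and STAT3. Mice without IL-10 are known for inflammation of the bowel, and the liver receives the blood that drains from the gut. In inflammation, IL-6, acting through STAT3, and IL-1, acting through NF-kB and C/EBP factors, switch hepatocytes to the secretion of acute phase proteins.

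The difference between the groups covered a large part of the transcriptome. Of 12891 genes tested, 5822 (45.2%) passed edgeR's quasi-likelihood test at an adjusted p below 0.05, where the p-values were adjusted by Benjamini and Hochberg over all tested genes. Of these, 2960 (23%) were higher and 2862 (22.2%) were lower in dKO_chow. Larger changes leaned to one side: 1494 genes were at least 2-fold higher and 432 at least 2-fold lower, and 568 were at least 4-fold higher and 93 at least 4-fold lower. The values of the groups did not overlap for 5910 genes (45.8%). The median log2 fold change over all tested genes was 0.01 and the median size of the change was 0.30. The even split of higher and lower genes depended on the scaling: higher genes were 50.8% of those called with trimmed means, 63.7% with upper quartile factors, 63.3% with the deposited log2 values and 69.3% with library totals alone, which moved the median of all genes to 0.14. Values below are CPM (counts per 1e6, with library sizes scaled by trimmed means), given library by library in the order of accession.

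Sequencing depth differed with the groups. Library totals, in 1e6 counts, were 16.2 to 30.2 in dKO_chow and 7.11 to 11.2 in IL4KO_chow, a difference for which an exact two-sided permutation test gave p = 0.0286, the smallest value that 4 against 4 can give. With every library thinned to the smallest, 4284 genes passed the test. Correlations of log2 CPM ran from 0.9865 to 0.9898 within dKO_chow, from 0.9809 to 0.9889 within IL4KO_chow and from 0.9248 to 0.9516 between them. Replicate 3 of IL4KO_chow stood apart from its group in acute phase and neutrophil genes, and replicate 4 of dKO_HFD stood apart from its own group in the direction of dKO_chow. Replicate 2 of IL4KO_HFD stood apart too, with a level of monocyte-derived macrophage genes of 0.87 against -0.69 and -0.99 in the other IL4KO_HFD libraries, where the level is the mean log2 CPM of the list centred on the 8 chow libraries. Results that rest on these libraries are given below without them. Liver was plain in all 8 libraries, with Alb, the gene of serum albumin, holding 6.24% to 8.45% of all counts.

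The targeted genes did not check the labels. Il4 was counted 0 to 3 times in dKO_chow and 0 times in IL4KO_chow and WT_chow, too few to be tested. Il10 was counted 41, 67, 41 and 64 times in dKO_chow, against 2, 0, 0 and 0 times in IL4KO_chow and 0 to 2 times in WT_chow. In CPM, Il10 was 1.96, 2, 2.39 and 2.99 in dKO_chow and 0.185, 0, 0 and 0 in IL4KO_chow (log2 fold change of 5.19 ± 0.79 (SE), adjusted p = 3.62e-05). Reads counted over the whole gene were thus higher in the libraries labelled as lacking IL-10, and a count per gene does not show which exons they came from. Every direction given below rests on those labels.

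**Figure D1:**
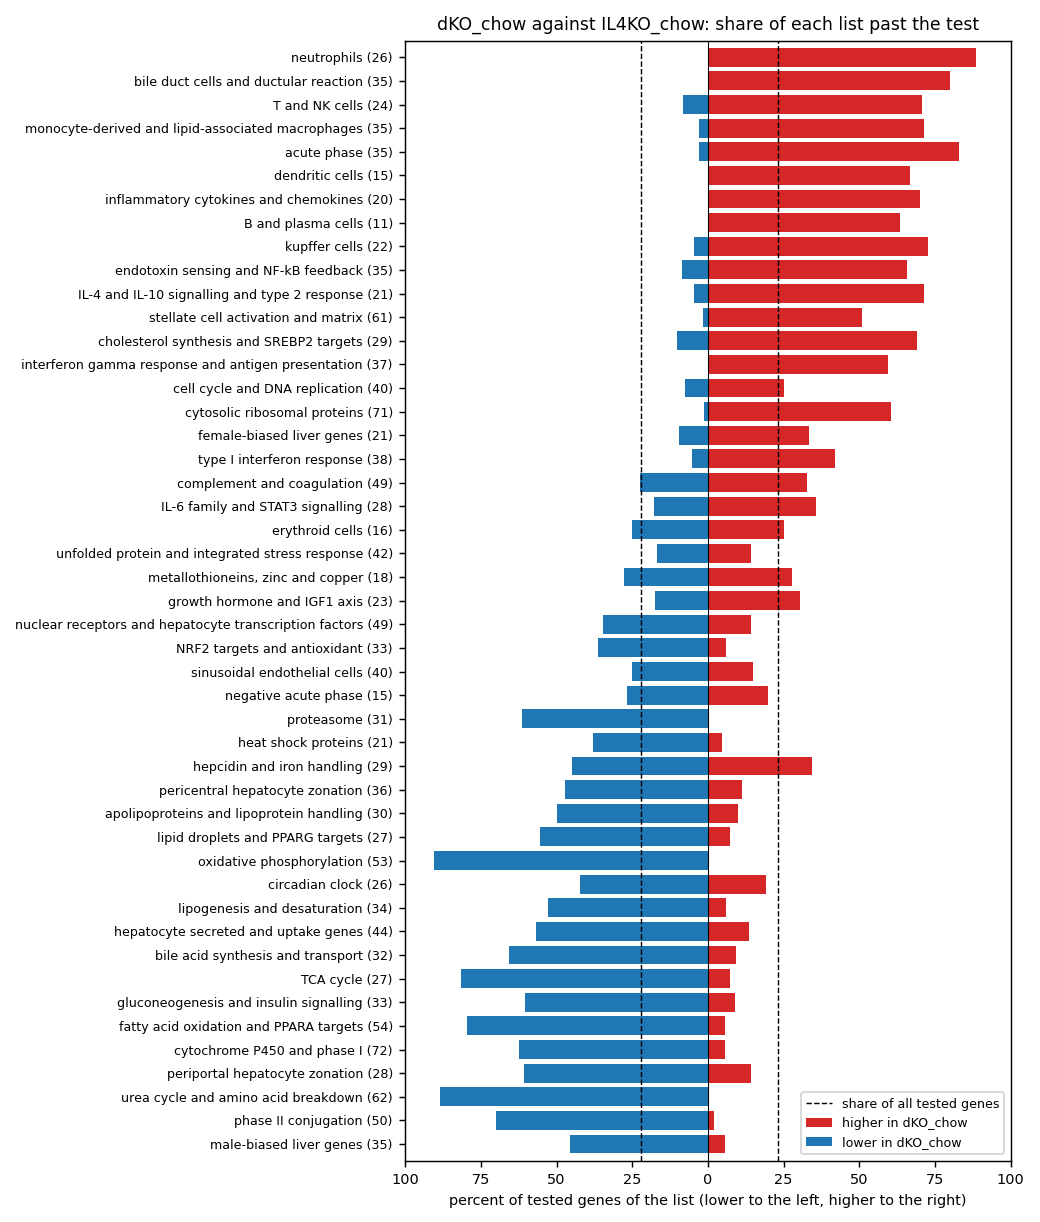
Share of each gene list past the test in dKO_chow against IL4KO_chow, for lists with at least 10 tested genes (number tested in brackets), ordered by the list's median log2 fold change. Red bars to the right give the percent higher and blue bars to the left the percent lower, and the dashed lines mark the shares over all tested genes, 23% and 22.2%. Genes of urea cycle and amino acid breakdown stand at 88.7% lower. Neutrophil genes stand at 88.5% higher of those tested, some of which passed the filter on low counts only through dKO_chow.

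The genes of the acute phase, most of which hepatocytes secrete into plasma, rose as a group. Of 35 tested genes of this list, 29 were higher and 1 was lower in dKO_chow, with a median log2 fold change of 1.56 against 0.01 over all tested genes. Their summed level was 101000 to 132000 CPM in dKO_chow and 52700 to 71600 CPM in IL4KO_chow, so the groups did not overlap. Without replicate 3 of IL4KO_chow the count stayed at 29 and the median was 1.71. The promoters of the 4 genes of the list with the largest rises are shown here because these are the genes that stand out below. Each is 300 bases of RefSeq's GRCm38.p6 (mm10), as its promoter table gives them, from 250 bases before to 50 bases after the start site the table uses, 5′ to 3′ on the gene's strand. For Saa1 this start site lies inside the interval RefSeq lists for the gene. Capitals mark matches to TTGCNNAA, a core of the site of C/EBP factors, searched on both strands. 
Orm2, chr4:63362199-63362498, plus strand: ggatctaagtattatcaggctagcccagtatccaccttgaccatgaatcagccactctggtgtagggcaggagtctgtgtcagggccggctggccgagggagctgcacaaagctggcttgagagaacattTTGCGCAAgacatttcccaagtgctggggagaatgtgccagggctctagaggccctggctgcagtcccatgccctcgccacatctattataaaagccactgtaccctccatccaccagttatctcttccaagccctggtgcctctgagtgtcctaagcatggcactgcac
Saa2, chr7:46751583-46751882, plus strand: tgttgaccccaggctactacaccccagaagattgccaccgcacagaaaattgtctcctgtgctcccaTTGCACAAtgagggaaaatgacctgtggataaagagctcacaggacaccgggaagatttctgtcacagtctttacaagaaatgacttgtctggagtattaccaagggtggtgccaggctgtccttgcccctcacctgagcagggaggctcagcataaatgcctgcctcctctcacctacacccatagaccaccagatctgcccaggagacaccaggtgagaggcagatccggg
Saa1, chr7:46742931-46743230, minus strand: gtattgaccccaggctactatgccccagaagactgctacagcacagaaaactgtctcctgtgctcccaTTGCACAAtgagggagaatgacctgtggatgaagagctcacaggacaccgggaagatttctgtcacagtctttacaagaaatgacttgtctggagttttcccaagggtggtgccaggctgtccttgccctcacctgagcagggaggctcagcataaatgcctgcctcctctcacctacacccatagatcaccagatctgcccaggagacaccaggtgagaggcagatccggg
Lcn2, chr2:32387690-32387989, minus strand: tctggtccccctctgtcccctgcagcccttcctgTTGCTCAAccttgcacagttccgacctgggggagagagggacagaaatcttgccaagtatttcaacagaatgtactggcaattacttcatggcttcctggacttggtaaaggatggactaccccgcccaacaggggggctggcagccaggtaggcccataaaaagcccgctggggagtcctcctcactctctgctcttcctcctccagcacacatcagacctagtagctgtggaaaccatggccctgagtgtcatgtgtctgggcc
The match lies at bases -120 to -113 from the start site of Orm2, -183 to -176 of Saa2, -182 to -175 of Saa1 and -216 to -209 of Lcn2. Of the 29 acute phase genes that were higher, 23 had a promoter in the table, and 13 of the 23 held the letters TTGCNNAA, against 12.2% of 27025 genes. A STAT site, TTCNNNGAA, was in 5 of the 23 and in 9.55% of genes, and the NF-kB site was in 2 of the 23 and in 9.55% of genes. A match describes letters in this window only.

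Saa1 and Saa2 code for serum amyloid A, an apolipoprotein of inflammation, and share most of their sequence, so counts may be split between them. Saa2 stood at 4780, 2810, 7640 and 5500 CPM in dKO_chow and at 41.8, 71.7, 454 and 6.69 CPM in IL4KO_chow (log2 fold change of 5.18 ± 1.54 (SE), adjusted p = 0.0114). Saa1 stood at 4450, 2920, 6040 and 5300 CPM and 87, 104, 712 and 22.1 CPM (log2 fold change of 4.34 ± 1.36 (SE), adjusted p = 0.0154). For both genes replicate 3 of IL4KO_chow was far above the other IL4KO_chow libraries and still below every dKO_chow library. Orm2, which codes for an alpha-1 acid glycoprotein, was at 1660, 1690, 2070 and 1400 CPM against 18.1, 17.2, 68.6 and 6.69 CPM (log2 fold change of 5.96 ± 1.22 (SE), adjusted p = 0.000806). Lcn2, a siderophore-binding protein that withholds iron from bacteria, was at 1210, 918, 1300 and 1250 CPM against 13, 15.2, 99.7 and 6.13 CPM (log2 fold change of 5.15 ± 1.16 (SE), adjusted p = 0.00164). The Orm genes are near copies of each other, which may also share counts. Saa1, Orm2 and Lcn2 were picked for mention after their values were seen.

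Other plasma proteins moved by smaller factors. Hp, the haemoglobin scavenger haptoglobin, was at 12100, 11600, 12800 and 14600 CPM in dKO_chow and 3360, 2930, 5330 and 2850 CPM in IL4KO_chow (log2 fold change of 1.82 ± 0.28 (SE), adjusted p = 3.09e-05). Hpx, which binds free haem, was at 14600, 12100, 13500 and 14400 CPM against 3610, 2900, 5300 and 2780 CPM (log2 fold change of 1.91 ± 0.35 (SE), adjusted p = 0.000214). The groups did not overlap for either gene. The 3 fibrinogen chains rose alike, with log2 fold changes of 1.22 for Fga, 1.17 for Fgb and 1.21 for Fgg. Cp, the copper-carrying ferroxidase ceruloplasmin, had the smallest adjusted p of the list at 4000, 3160, 3950 and 3520 CPM against 1590, 1500, 1750 and 1490 CPM (log2 fold change of 1.21 ± 0.14 (SE), adjusted p = 1.2e-06). Cd14, the co-receptor for endotoxin, was at 28.3, 24.3, 38.8 and 28.1 CPM against 2.6, 1.63, 1.14 and 2.37 CPM (log2 fold change of 3.92 ± 0.45 (SE), adjusted p = 3.4e-06), and Il1rn, the antagonist of the IL-1 receptor, rose by 2.25 on the log2 scale. Serpina1b, 1 of several near-identical antitrypsin genes whose counts may be split, was the acute phase gene that was lower (log2 fold change of -0.75 ± 0.12 (SE), adjusted p = 5.78e-05). Genes whose proteins fall in inflammation did not move as a block: 3 of 15 (20%) were higher and 4 (26.7%) lower, near the 23% and 22.2% over all genes. Their median was -0.15 (-0.01 with library totals alone). Rbp4 and Ttr, carriers of retinol and thyroid hormone, fell by 0.81 and 0.63 on the log2 scale. Trf, the iron carrier transferrin, is on that list and rose, from 12100, 11100, 13900 and 11800 CPM in IL4KO_chow to 22000, 23400, 23700 and 24000 CPM in dKO_chow.

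Upstream of the acute phase genes, receptors and feedback genes of the IL-6 family and of NF-kB were called more in the higher than in the lower direction. Of 28 tested genes of IL-6 family and STAT3 signalling, 10 (35.7%) were higher and 5 (17.9%) lower, with a median of 0.28. Over all tested genes the shares were 23% and 22.2%, so the lower share was near that over all genes. The lower count was 1 without replicate 2 of dKO_chow, 2 without its replicate 4, and 3 without replicate 1, 2 or 4 of IL4KO_chow. Osmr, the receptor of oncostatin M, was at 25.1, 16.6, 20.5 and 21.5 CPM in dKO_chow and 6.96, 7.68, 6.86 and 5.29 CPM in IL4KO_chow (log2 fold change of 1.63 ± 0.23 (SE), adjusted p = 1.12e-05). Clcf1, a ligand of this family, rose by 2.04 on the log2 scale, and Il6ra, the IL-6 receptor, fell by 0.82. Of 35 genes of endotoxin sensing and NF-kB feedback, 23 were higher and 3 lower, with a median of 0.85. Among the 35, 4 passed the filter on low counts only through dKO_chow and so had to be higher there. Nfkbiz, a nuclear co-factor of NF-kB, was at 23.9, 25.6, 26.6 and 25.7 CPM against 7.23, 7.31, 7.01 and 5.99 CPM (log2 fold change of 1.88 ± 0.22 (SE), adjusted p = 2.19e-06). Tnfaip3, the deubiquitinase A20 that ends NF-kB signalling, was at 10, 9.92, 10.3 and 9.1 CPM against 4.54, 3.61, 3.15 and 3.62 CPM (log2 fold change of 1.38 ± 0.19 (SE), adjusted p = 8.1e-06). Aoah, the enzyme that deacylates endotoxin, rose by 2.46 on the log2 scale. Tlr5, the receptor of flagellin, moved the other way, at 4.17, 4.03, 3.68 and 3.97 CPM against 9.92, 9.03, 12.7 and 10.7 CPM (log2 fold change of -1.41 ± 0.27 (SE), adjusted p = 0.000301).

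Of 20 tested cytokine and chemokine genes, 14 were higher, none was lower and the median was 1.35. Among the 20, 2 passed the filter on low counts only through dKO_chow and so had to be higher there. Another 17 listed cytokine genes were under the filter on low counts and Il17a was at 0 in all 8 libraries. Cxcl13, the chemokine that draws B cells, was uneven between animals, at 46.5, 11.1, 17.4 and 96.4 CPM in dKO_chow and 1.3, 1.44, 0.286 and 0.975 CPM in IL4KO_chow (log2 fold change of 5.31 ± 0.74 (SE), adjusted p = 2.65e-05). Even its lowest dKO_chow value lay above all IL4KO_chow values. Ccl6, a chemokine of myeloid cells, was at 26.8, 25.5, 39.6 and 30.8 CPM against 7.88, 8.58, 6.86 and 8.22 CPM (log2 fold change of 1.95 ± 0.24 (SE), adjusted p = 5.54e-06), and Cxcl16 and Cx3cl1, both made as membrane-bound chemokines, rose by 1.37 and 2.67 on the log2 scale. On the list of IL-4 and IL-10 signalling and type 2 response, 15 of 21 tested genes were higher and 1 lower, with a median of 0.84, or 0.54 without replicate 2 of dKO_chow. Among the 21, 3 passed the filter only through dKO_chow and so had to be higher there. By its low CPM in the other groups Il10 is of that kind, so its p-value given above is a description alone. This list includes Il10 itself, Il10rb, the second chain of the IL-10 receptor, at 1.01, Il2rg, the common gamma chain that the IL-4 receptor uses, at 1.84, and Sbno2, a gene induced by IL-10, at 0.53. Arg1, a target of IL-4 in macrophages and the last enzyme of the urea cycle in hepatocytes, fell from 1850, 1790, 1690 and 1830 CPM to 1390, 1170, 1270 and 1160 CPM (log2 fold change of -0.52 ± 0.12 (SE), adjusted p = 0.000935).

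Among 38 genes of the type I interferon response, 16 were higher and 2 lower, with a median of 0.31. Zbp1, a sensor of Z-form nucleic acids, was at 16.8, 17.4, 16.7 and 13.7 CPM in dKO_chow and 4.73, 2.8, 3.29 and 0.975 CPM in IL4KO_chow (log2 fold change of 2.41 ± 0.51 (SE), adjusted p = 0.000859), and Ifi27l2a rose by 1.87 on the log2 scale. Rsad2, which codes for the antiviral enzyme viperin, was lower, at 3.02, 3.44, 4.14 and 5.65 CPM against 8.72, 8.85, 8.58 and 11.1 CPM (log2 fold change of -1.20 ± 0.27 (SE), adjusted p = 0.00125). Xaf1 was lower against IL4KO_chow (log2 fold change of -1.15 ± 0.20 (SE), adjusted p = 8.19e-05), where IL4KO_chow in turn stood above WT_chow (log2 fold change of 1.65 ± 0.21 (SE), adjusted p = 2.6e-05). Of 37 genes of the interferon gamma response and antigen presentation, 22 were higher and none was lower, with a median of 0.57. H2-DMa, which loads peptides on MHC class II, was at 9.05, 10.3, 12.3 and 8.92 CPM against 3.25, 2.8, 1.43 and 1.81 CPM (log2 fold change of 2.07 ± 0.39 (SE), adjusted p = 0.000227). Tap2, a chain of the peptide transporter, and Psmb8, an inducible proteasome subunit, rose by 0.68 and 0.83.

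Of 49 tested complement and coagulation genes, 16 (32.7%) were higher and 11 (22.4%) lower, against 23% and 22.2% of all tested genes, so the lower share was near that over all genes. The median was 0.28, and with the compared groups fitted alone 25 were higher. The macrophage product C1qa was at 105, 111, 133 and 129 CPM in dKO_chow and 51.4, 39.3, 34 and 35.4 CPM in IL4KO_chow (log2 fold change of 1.57 ± 0.25 (SE), adjusted p = 7.37e-05), and properdin, coded by Cfp, rose by 1.19. C3, made by hepatocytes and also an acute phase protein, rose from 8560, 6830, 11400 and 7140 CPM to 16700, 16600, 17800 and 15400 CPM (log2 fold change of 0.97 ± 0.25 (SE), adjusted p = 0.00329). The hepatocyte genes F13b and C8g fell by 0.71 and 0.81 on the log2 scale.

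**Figure D2:**
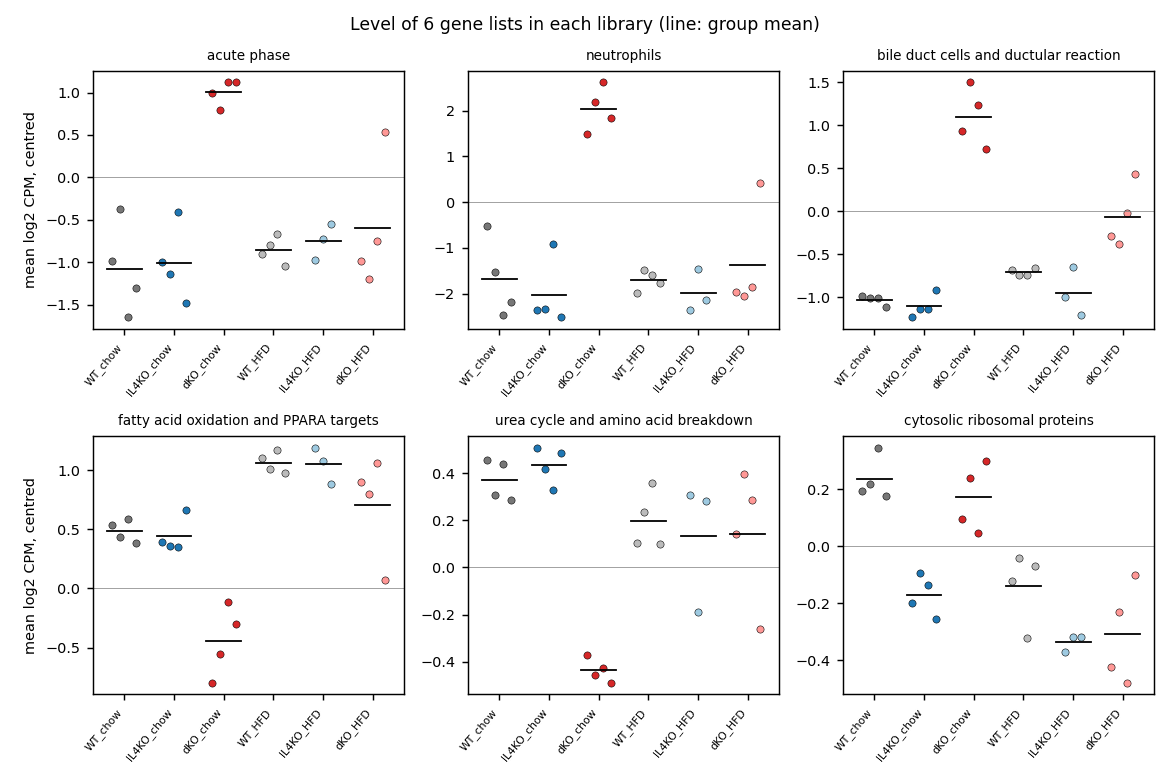
Level of 6 gene lists in each of the 23 libraries by group, where the level is the mean log2 CPM of the list's tested genes, each gene centred on its mean over the 8 chow libraries compared. Points are libraries and lines are group means. The neutrophil list lies at 1.48 to 2.62 in dKO_chow and at -2.52 to -0.91 in IL4KO_chow, and replicate 4 of dKO_HFD lies apart from its group in most panels.

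In bulk tissue fewer cells of a type cannot be told apart from less RNA per cell, for neutrophils and for every cell type below. Of 37 listed neutrophil genes 26 were tested, 10 were under the filter on low counts and 1 was at 0. Of the 26, 12 passed the filter only through the dKO_chow libraries and so had to be higher there, as had 10 of the 24 T and NK cell genes, 5 of the 15 dendritic cell genes and 4 of the 35 bile duct genes tested. So had 3 of the 35 genes of monocyte-derived macrophages, 2 of the 11 B and plasma cell genes and 2 of the 61 stellate cell and matrix genes. The erythroid, cell cycle, unfolded protein and male-biased lists, given below, each held 1 such gene. The counts and medians of these lists are therefore descriptions of the tested genes alone. The same holds for the p-values of members at low counts outside dKO_chow. By their CPM, Elane, Mpo, Ctsg, Camp and Retnlg, and below Cd3g, Mmp7 and Sptb, are such members. For neutrophils, 23 of the 26 were higher and none was lower. The fitted median was 5.48, or 5.01 when the 3 genes at 0 in a whole group were set to their bounds, 2.52 in the deposited log2 values, and 7.35 without replicate 3 of IL4KO_chow. Elane and Mpo, enzymes of primary granules that are made in precursors, were at 1.96, 5.62, 11.1 and 4.67 CPM and 5.98, 16.9, 34 and 12.7 CPM in dKO_chow, and at 0, 0, 0.143 and 0 CPM and 0, 0.0903, 0.715 and 0 CPM in IL4KO_chow (log2 fold change of 7.30 ± 1.0 (SE), adjusted p = 1.66e-05 for Elane, and 6.61 ± 1.35 (SE), adjusted p = 0.00095 for Mpo). Ctsg, another protease of those granules, was at 0 in every IL4KO_chow library and at 0.622, 2.36, 5.08 and 2.19 CPM in dKO_chow, at least 29.2-fold higher against a floor of 3 counts over the group. Camp, the cathelicidin of secondary granules, rose by 7.02 on the log2 scale. S100a8, a subunit of calprotectin, was at 36, 72.2, 103 and 42.1 CPM against 0, 0.0903, 3.15 and 0.139 CPM (log2 fold change of 6.51 ± 1.19 (SE), adjusted p = 0.000308). Csf3r, the receptor of the neutrophil growth factor G-CSF, and Retnlg, a resistin-like gene of neutrophils, rose by 3.22 and 5.62. For Elane, Mpo, Camp, S100a8 and Retnlg replicate 3 of IL4KO_chow was the highest of its group, and it lay below every dKO_chow library.

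Macrophage genes rose as well. Of 22 tested Kupffer cell genes, 16 were higher and 1 lower, with a median of 1.20. Clec4f, a lectin made by resident Kupffer cells, was at 160, 166, 203 and 174 CPM in dKO_chow and 101, 76.2, 79.1 and 79.1 CPM in IL4KO_chow (log2 fold change of 1.07 ± 0.18 (SE), adjusted p = 8.3e-05), and Vsig4, a complement receptor of these cells, rose by 1.32. Slc40a1, the iron exporter ferroportin, was the gene of the list that fell (log2 fold change of -0.53 ± 0.11 (SE), adjusted p = 0.000351). Among genes of monocyte-derived and lipid-associated macrophages, 25 of 35 were higher and 1 was lower, with a median of 1.88. Lyz2, a lysozyme of myeloid cells, was at 119, 148, 161 and 145 CPM against 46.9, 33.2, 34.7 and 34.3 CPM (log2 fold change of 1.94 ± 0.29 (SE), adjusted p = 4.6e-05). Itgam, the integrin CD11b, and Plac8, a gene of monocytes, rose by 3.52 and 2.43. Spp1, osteopontin, which both macrophages and bile duct cells make, was at 563, 737, 776 and 421 CPM against 31.8, 29.3, 33.7 and 35.8 CPM (log2 fold change of 4.26 ± 0.43 (SE), adjusted p = 1.27e-06). Apoc2 fell by 0.44 on the log2 scale, a call that ended with library totals alone (adjusted p = 0.16) and when replicate 1 or 4 of IL4KO_chow or replicate 1 of dKO_chow was left out (0.0508 to 0.0672).

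Lymphocyte and dendritic cell genes rose too, many from low counts. Of 24 tested T and NK cell genes, 17 were higher and 2 lower, with a median of 2.0 (0.97 in the deposited log2 values). With libraries thinned to the smallest, 9 were higher, and with the stricter filter 11. Cd3g, a chain of the T cell receptor complex, was at 1.2, 2.51, 1.05 and 0.98 CPM in dKO_chow and 0.0927, 0.181, 0.143 and 0 CPM in IL4KO_chow (log2 fold change of 3.63 ± 0.67 (SE), adjusted p = 0.000174). As Cd3g was at low counts in all groups but dKO_chow, this p-value is a description alone. Il2rb, a receptor chain of T and NK cells, rose by 2.27, whereas Zap70, a kinase of the T cell receptor, fell from 10, 6.86, 7.72 and 7.24 CPM to 3.06, 3.41, 2.74 and 3.17 CPM (log2 fold change of -1.36 ± 0.23 (SE), adjusted p = 8.02e-05). Among 11 B and plasma cell genes 7 were higher and none lower, a count that dropped to 4 both after thinning and without replicate 2 of dKO_chow. Jchain, which joins the chains of secreted IgA and IgM, was at 6.89, 14.9, 9.28 and 4.06 CPM against 0.927, 1.99, 1.14 and 3.48 CPM (log2 fold change of 2.26 ± 0.46 (SE), adjusted p = 0.000457). Among 15 dendritic cell genes 10 were higher and none lower, with 6 after thinning and 6 without replicate 4 of IL4KO_chow. Irf8, a transcription factor of these cells, was at 13.1, 14, 18 and 13.6 CPM against 6.31, 7.13, 4.15 and 4.74 CPM (log2 fold change of 1.36 ± 0.30 (SE), adjusted p = 0.000975), and the co-stimulator Cd86 rose by 1.20. Of 20 listed genes of eosinophils and mast cells, 3 were tested and Ear2, an eosinophil ribonuclease, was the 1 called (log2 fold change of 1.53 ± 0.40 (SE), adjusted p = 0.00401), while the mast cell proteases Mcpt1, Mcpt2, Mcpt4, Cma1 and Tpsb2 were at 0 in all 8 libraries.

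Genes of the bile duct epithelium rose in 28 of 35 tested genes and none was lower, with a median of 3.04 (1.68 in the deposited log2 values). Mmp7, a matrix protease of duct cells, was at 14.4, 23.5, 20.1 and 11.1 CPM in dKO_chow and 0, 0.0903, 0 and 0.139 CPM in IL4KO_chow (log2 fold change of 8.07 ± 0.76 (SE), adjusted p = 3.84e-07). That p-value too is a description alone, because Mmp7 passed the filter only through dKO_chow. Epcam, an adhesion molecule of duct and progenitor cells, was at 8.33, 13.1, 10.6 and 6.21 CPM against 0.556, 0.903, 0.429 and 0.557 CPM (log2 fold change of 3.90 ± 0.34 (SE), adjusted p = 5.93e-08), and Krt19, a keratin of duct cells, was at 5.22, 12.6, 5.72 and 5.51 CPM against 0.371, 0.361, 0.286 and 0.279 CPM (log2 fold change of 4.43 ± 0.43 (SE), adjusted p = 2.72e-07). No dKO_chow library overlapped an IL4KO_chow library for these genes, and replicate 2 of dKO_chow was highest for each. Cd24a, a surface protein of duct cells that leukocytes also carry, rose by 3.91.

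Stellate cell and matrix genes rose in part. Of 61 tested, 31 were higher and 1 lower, with a median of 0.74. Gas6, a ligand of the TAM receptors, was at 193, 237, 224 and 188 CPM in dKO_chow and 32.6, 28, 44.2 and 33 CPM in IL4KO_chow (log2 fold change of 2.62 ± 0.32 (SE), adjusted p = 5.79e-06). Mmp14, a membrane-bound matrix protease, rose by 1.17 on the log2 scale, and Col18a1, the collagen that yields endostatin, was the gene that fell (log2 fold change of -0.42 ± 0.085 (SE), adjusted p = 0.000398). The 40 sinusoidal endothelial genes did not lean upward: 6 (15%) were higher and 10 (25%) lower, against 23% and 22.2% of all genes. Their median was -0.13 and became 0.00304 with library totals alone. Icam1, the adhesion molecule that arrests leukocytes, was at 41, 38.9, 39.3 and 40.7 CPM against 7.88, 9.57, 12.4 and 5.99 CPM (adjusted p = 0.000334). Kdr, a VEGF receptor, and Oit3 fell by 0.38 and 0.58 on the log2 scale. Erythroid genes had 4 higher and 4 lower of 16 (25% each way, near the 23% and 22.2% over all genes), and among 8 tested genes of megakaryocytes and platelets 6 were higher, or 3 without replicate 3 of dKO_chow. Nfe2, a transcription factor of both lineages, was at 4.31, 12.1, 4.73 and 5.84 CPM against 0.0927, 0.271, 0.572 and 0.279 CPM (log2 fold change of 4.56 ± 0.63 (SE), adjusted p = 1.13e-05). Sptb, a spectrin of the red cell skeleton, rose by 2.09, and Alas2, the erythroid enzyme that starts haem synthesis, fell from 186, 165, 135 and 168 CPM to 73.5, 64.4, 62.8 and 71.9 CPM (log2 fold change of -1.26 ± 0.15 (SE), adjusted p = 2.39e-06). By its CPM, Sptb passed the filter only through dKO_chow, so its rise is a description alone.

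Tissues that could be carried along with a liver sample left little signal. Of 17 muscle genes 1 was tested and not called (Des, 0.41, adjusted p = 0.0567), and 8, among them Ckm, Myh2 and Myl1, were at 0 in all 8 libraries. Of 34 pancreas and gut genes 20 were at 0 in all 8, among them Prss1, Cpa1 and Ins2, and of the 4 tested Tff3, a trefoil peptide, was higher (log2 fold change of 2.82 ± 1.06 (SE), adjusted p = 0.0377) and Cela1, an elastase, was lower (log2 fold change of -1.38 ± 0.24 (SE), adjusted p = 9.46e-05). The Tff3 call ended under limma-voom (adjusted p = 0.0627), after thinning (0.0609), and when replicate 1, 2 or 4 of IL4KO_chow or replicate 1 or 4 of dKO_chow was left out (0.0663 to 0.092). Adipoq, Lep, Retn and Plin1, which define fat cells, were at 0 in all 8 libraries. Of the 5 adipocyte genes tested 3 were lower and none higher, and the summed level of the list was 174 to 261 CPM in dKO_chow and 2290 to 4150 CPM in IL4KO_chow. Most of it was Car3, a carbonic anhydrase, at 255, 196, 166 and 246 CPM against 3620, 3540, 2270 and 4110 CPM (log2 fold change of -3.97 ± 0.32 (SE), adjusted p = 5.93e-08). Cidec, a lipid droplet protein, was at 0.862, 1.11, 2.86 and 1.59 CPM against 10.9, 10.7, 11.9 and 21.3 CPM (log2 fold change of -3.14 ± 0.96 (SE), adjusted p = 0.0134, but 0.181 with limma-voom), and Cfd, the serine protease adipsin, was at 0.0479, 0.119, 0.0584 and 0 CPM against 4.17, 1.9, 7.58 and 5.01 CPM (log2 fold change of -5.94 ± 1.88 (SE), adjusted p = 0.0159, but 0.384 with limma-voom).

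**Figure D3:**
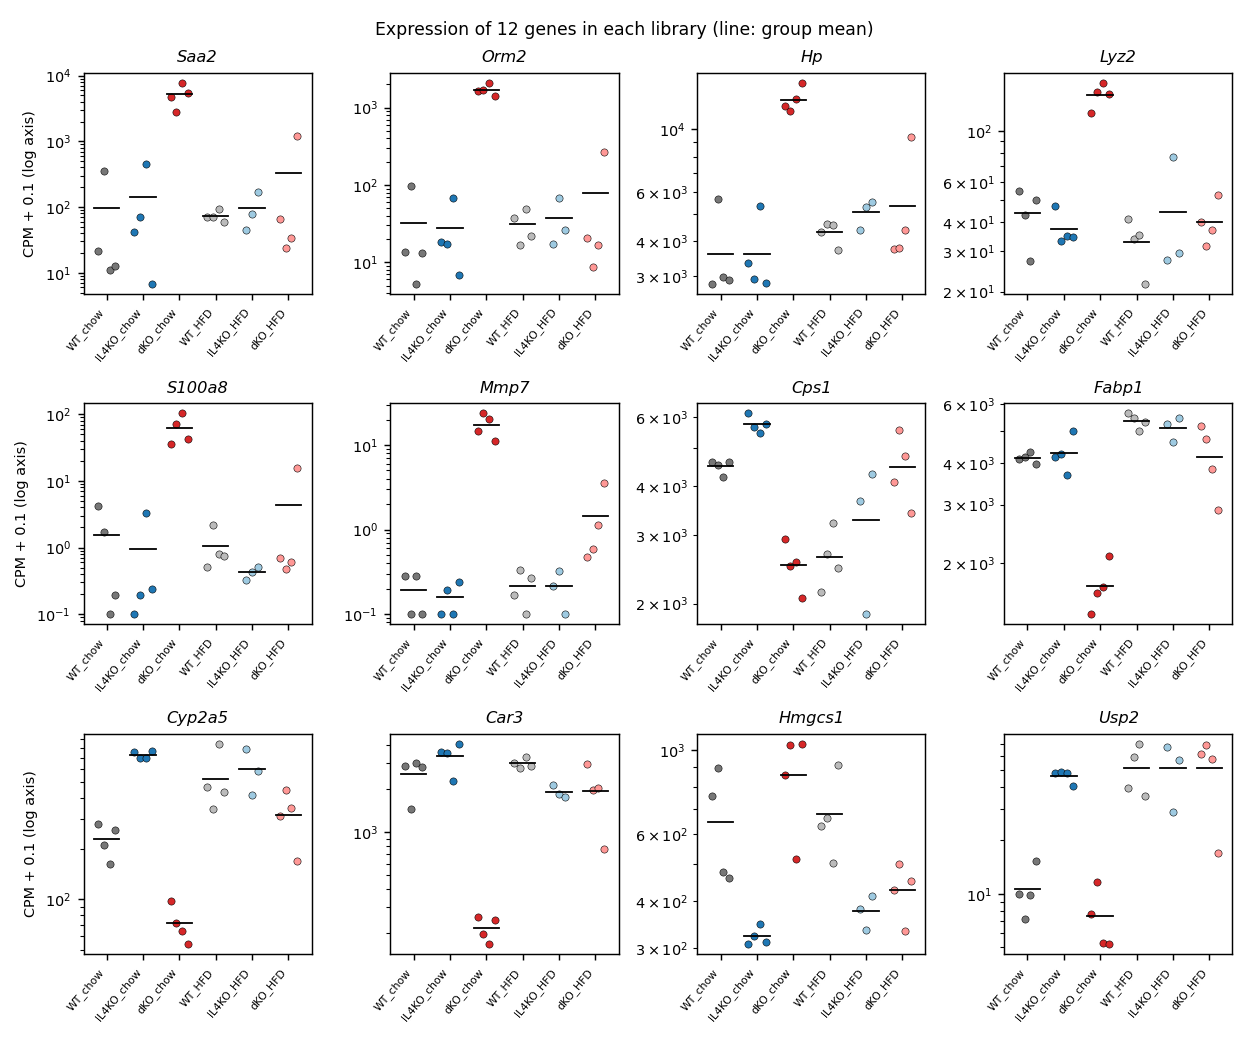
Expression of 12 genes in each of the 23 libraries, as CPM plus 0.1 on a log axis, by group. Points are libraries and lines are group means, and the axis range differs between panels. For the genes shown other than Hmgcs1 and Usp2, dKO_chow lies apart from IL4KO_chow and WT_chow alike, and replicate 4 of dKO_HFD lies nearest to dKO_chow for Saa2, Orm2, Hp, S100a8 and Car3.

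Of 29 tested genes of hepcidin and iron handling, 10 (34.5%) were higher and 13 (44.8%) lower, against 23% and 22.2% of all genes. The median was -0.27 (-0.14 with library totals alone and after thinning). Slc11a2, the importer DMT1, was at 75.1, 61.2, 67.5 and 89.4 CPM in dKO_chow and 30.4, 28.6, 36.9 and 28.7 CPM in IL4KO_chow (log2 fold change of 1.24 ± 0.18 (SE), adjusted p = 2.38e-05). Aco1, the iron-sensing protein IRP1, and Tmprss6, the protease that holds hepcidin down, fell by 0.63 and 0.38. Hamp, the gene of hepcidin itself, was chosen for mention after its values were seen. It was at 68, 202, 44.6 and 17.8 CPM against 952, 759, 997 and 757 CPM (log2 fold change of -3.38 ± 0.91 (SE), adjusted p = 0.00599), and the groups did not overlap. Hepcidin limits iron export, and IL-6 is known to induce it. Of 18 genes of metallothioneins, zinc and copper, 5 were higher and 5 lower, 27.8% each way, which is near the 23% and 22.2% over all genes. Mt1 and Mt2, metallothioneins that bind zinc, rose from 93.4, 58, 129 and 47.2 CPM to 683, 342, 730 and 967 CPM (log2 fold change of 3.06 ± 0.79 (SE), adjusted p = 0.0045) and by 3.16 on the log2 scale. Sod1, the copper and zinc superoxide dismutase, fell from 197, 169, 173 and 179 CPM to 126, 129, 119 and 131 CPM (log2 fold change of -0.51 ± 0.084 (SE), adjusted p = 5.76e-05).

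Genes of mitochondrial energy metabolism fell. Of 53 tested genes of oxidative phosphorylation, 48 were lower, none was higher and the median was -0.47. Sdhb, a subunit of complex II, was at 117, 106, 102 and 104 CPM in dKO_chow and 212, 201, 171 and 228 CPM in IL4KO_chow (log2 fold change of -0.92 ± 0.094 (SE), adjusted p = 4.46e-07). Ndufs1, of complex I, and Uqcrc1, of complex III, fell by 0.82 and 0.75 on the log2 scale. Of 27 genes of the TCA cycle, 22 were lower and 2 higher, with a median of -0.62. Idh3b, a subunit of isocitrate dehydrogenase, fell from 179, 177, 166 and 207 CPM to 107, 102, 108 and 107 CPM (log2 fold change of -0.78 ± 0.077 (SE), adjusted p = 3.42e-07). Pdk1, a kinase that shuts the entry of pyruvate, fell by 1.12, and Me2, a malic enzyme, rose by 1.57. Scaling by library totals alone left the median of oxidative phosphorylation at -0.34.

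Fatty acid oxidation and the targets of PPARA, the receptor that drives it, were lower in 43 of 54 tested genes and higher in 3, with a median of -0.78. Fabp1, the liver's fatty acid binding protein, was at 1410, 1630, 1700 and 2100 CPM in dKO_chow and 4180, 4260, 3670 and 4990 CPM in IL4KO_chow (log2 fold change of -1.32 ± 0.15 (SE), adjusted p = 1.23e-06). Slc27a2, which imports and activates very long fatty acids, was at 620, 583, 772 and 714 CPM against 1620, 1580, 1580 and 1920 CPM (log2 fold change of -1.32 ± 0.13 (SE), adjusted p = 4.07e-07). Cyp4a10, an omega-hydroxylase and a much used PPARA target, was at 2.25, 6.9, 55 and 11.1 CPM against 392, 284, 314 and 508 CPM (log2 fold change of -4.33 ± 0.84 (SE), adjusted p = 0.00047). Its value in replicate 3 of dKO_chow was far above the other 3, and still below every IL4KO_chow value. Eci1, an isomerase of the oxidation of unsaturated fatty acids, and Ppara itself fell by 1.10 and 0.79. Ucp2, a mitochondrial carrier that macrophages also express, rose from 33, 27.1, 25.5 and 26.3 CPM to 51.1, 64.9, 77.2 and 71.9 CPM (log2 fold change of 1.24 ± 0.27 (SE), adjusted p = 0.000974), and Fgf21, a hormone that PPARA and the stress response induce, rose by 2.42 (adjusted p = 0.00103, but 0.0734 with limma-voom) with groups that overlapped.

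Urea cycle and amino acid breakdown, the hepatocyte's route for nitrogen, fell with 55 of 62 tested genes lower and none higher, a median of -0.89, and groups that did not overlap for 57. Among all tested genes the groups did not overlap for 45.8%. Cps1, which makes carbamoyl phosphate for the urea cycle, was at 2920, 2490, 2550 and 2070 CPM in dKO_chow and 6140, 5670, 5470 and 5770 CPM in IL4KO_chow (log2 fold change of -1.20 ± 0.19 (SE), adjusted p = 3.77e-05). Otc, the next enzyme, was at 239, 216, 215 and 198 CPM against 544, 520, 446 and 572 CPM (log2 fold change of -1.26 ± 0.12 (SE), adjusted p = 1.49e-07), and Asl, further along the cycle, fell by 1.37 on the log2 scale. Pcca, a subunit of propionyl-CoA carboxylase, and Mccc1, a subunit of the carboxylase of leucine breakdown, fell by 1.12 and 1.09. Glucose genes followed in 20 of 33 tested genes that were lower, with 3 higher and a median of -0.63. Slc2a2, the hepatocyte glucose transporter GLUT2, was at 152, 170, 135 and 131 CPM against 360, 398, 350 and 438 CPM (log2 fold change of -1.39 ± 0.12 (SE), adjusted p = 5.93e-08). Fbp1, an enzyme of gluconeogenesis, and Gys2, the liver's glycogen synthase, fell by 0.93 and 1.21. Akt1, a kinase of insulin signalling, was among the higher genes (log2 fold change of 0.53 ± 0.11 (SE), adjusted p = 0.000473).

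Lipid synthesis split between fatty acids and cholesterol. Of 34 lipogenic genes 18 were lower and 2 higher, with a median of -0.53. Lpin1, a phosphatidate phosphatase and co-activator of PPARA, was at 286, 135, 224 and 224 CPM in dKO_chow and 1590, 1500, 826 and 852 CPM in IL4KO_chow (log2 fold change of -2.46 ± 0.37 (SE), adjusted p = 3.73e-05), and Gpam, which starts glycerolipid synthesis, fell by 1.11. Of 27 genes of lipid droplets and PPARG targets, 15 were lower and 2 higher. Retsat, a retinol saturase, and Fitm1, a protein of droplet formation, fell by 1.82 and 2.19, and the rise of Fabp4 at 0.84 (adjusted p = 0.0465) was lost with limma-voom (0.112) and when any library of IL4KO_chow or replicate 3 or 4 of dKO_chow was left out (0.0727 to 0.138). Cholesterol synthesis and the targets of SREBP2 went the other way, with 20 of 29 genes higher, 3 lower and a median of 0.69. Hmgcs1, which makes HMG-CoA, was at 858, 1030, 515 and 1040 CPM against 307, 323, 347 and 312 CPM (log2 fold change of 1.42 ± 0.23 (SE), adjusted p = 5.32e-05), and Mvd, a decarboxylase of the mevalonate pathway, rose by 2.13. Both genes were below WT_chow in IL4KO_chow (log2 fold changes of -1.01 and -1.24), and the list's median for IL4KO_chow against WT_chow was -0.44. Npc1, which exports cholesterol from lysosomes, fell from 166, 157, 156 and 221 CPM to 85.8, 94.5, 107 and 86 CPM (log2 fold change of -0.91 ± 0.11 (SE), adjusted p = 3.33e-06).

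Of 30 genes of apolipoproteins and lipoprotein handling, 15 were lower and 3 higher, with a median of -0.38 (-0.24 with library totals alone). Apoe, the ligand for uptake of lipoprotein remnants, was at 11400, 13200, 11600 and 12300 CPM in dKO_chow and 18400, 17400, 17600 and 18900 CPM in IL4KO_chow (log2 fold change of -0.57 ± 0.12 (SE), adjusted p = 0.000402, but 0.17 in the deposited log2 values). Mttp, which loads lipid on nascent lipoproteins, fell by 0.77, and Sort1, a sorting receptor of their secretion, rose by 0.88. Of 32 genes of bile acid synthesis and transport, 21 were lower and 3 higher, with a median of -0.59. Acox2 and Hsd17b4, enzymes that shorten the bile acid side chain, fell by 0.94 and 0.98. Abcc2, the canalicular exporter of conjugated bilirubin, was at 179, 172, 180 and 137 CPM against 421, 394, 363 and 407 CPM (log2 fold change of -1.25 ± 0.13 (SE), adjusted p = 4.38e-07). Its level in WT_chow was 206, 163, 188 and 207 CPM, and IL4KO_chow was above it (log2 fold change of 1.05 ± 0.13 (SE), adjusted p = 1.35e-05). Atp8b1, a canalicular lipid flippase, rose by 0.49 on chow and by 0.61 on the high-fat diet (adjusted p = 0.00187 and 0.0188), the second a call that ended without replicate 1 or 2 of IL4KO_HFD or replicate 4 of dKO_HFD (0.0536 to 0.176).

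Genes of both phases of drug metabolism fell. Of 72 genes of cytochrome P450 and phase I, 45 were lower and 4 higher, with a median of -0.84. Cyp2e1, the ethanol-oxidising enzyme of pericentral hepatocytes, was at 3920, 3900, 4660 and 3750 CPM in dKO_chow and 7970, 8630, 8860 and 8690 CPM in IL4KO_chow (log2 fold change of -1.07 ± 0.19 (SE), adjusted p = 9.96e-05). Cyp2a5, a coumarin hydroxylase that is nearly identical to Cyp2a4 and may share its reads, was at 97.1, 71.5, 64.4 and 53.7 CPM against 759, 693, 694 and 762 CPM (log2 fold change of -3.34 ± 0.32 (SE), adjusted p = 4.78e-07). It was at 281, 210, 163 and 257 CPM in WT_chow, between the other groups. Ces1e, a carboxylesterase, and Cyp2f2, an enzyme of periportal hepatocytes, fell by 2.73 and 1.57, and Cyp2c70, which makes muricholic acids, rose by 0.66. Cyp2c70 was at 690, 665, 523 and 680 CPM in dKO_chow and 396, 450, 425 and 348 CPM in IL4KO_chow. In WT_chow it was at 572, 686, 682 and 702 CPM, so that dKO_chow overlapped WT_chow and IL4KO_chow lay below both. Of 50 genes of phase II conjugation, 35 were lower and 1 higher, with a median of -0.94. The Ugt1a genes share all exons but the first, so their counts are uncertain. Ugt1a6a was at 48.9, 49.6, 44.8 and 44.2 CPM against 175, 177, 146 and 170 CPM (log2 fold change of -1.83 ± 0.12 (SE), adjusted p = 1.79e-09), and Ugt1a1, which conjugates bilirubin, fell by 1.54. Ugt1a9 was the gene that rose, at 417, 294, 329 and 308 CPM against 29, 30.1, 20.6 and 36.2 CPM (log2 fold change of 3.54 ± 0.46 (SE), adjusted p = 1.47e-05). Cat, the peroxisomal catalase, led the 12 lower of 33 genes of NRF2 targets and antioxidants, at 1640, 1570, 1570 and 1560 CPM against 3540, 3690, 3460 and 3880 CPM (log2 fold change of -1.20 ± 0.14 (SE), adjusted p = 1.23e-06), and Gpx3, a secreted glutathione peroxidase, was 1 of 2 that were higher (log2 fold change of 2.19 ± 0.30 (SE), adjusted p = 1.53e-05). The shares of that list were 36.4% lower and 6.06% higher, against 22.2% and 23% of all genes.

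Genes of both ends of the liver lobule were lower. Pericentral genes were lower in 17 of 36 and higher in 4 (median -0.36, or -0.225 with library totals alone), and periportal genes were lower in 17 of 28 and higher in 4 (median -0.87). Aldh3a2, a fatty aldehyde dehydrogenase on the pericentral list, was at 81.9, 92.7, 103 and 76.9 CPM in dKO_chow and 478, 464, 448 and 549 CPM in IL4KO_chow (log2 fold change of -2.45 ± 0.32 (SE), adjusted p = 1.11e-05). Cldn2, a tight junction protein on the same list, rose by 0.83, and Cdh1, the periportal cadherin that duct cells also carry, rose by 1.65. Among 44 genes that hepatocytes secrete or use for uptake, 25 were lower and 6 higher, with a median of -0.54. Slc38a4, an amino acid transporter, fell from 1610, 1460, 1500 and 1680 CPM to 732, 674, 828 and 619 CPM (log2 fold change of -1.13 ± 0.14 (SE), adjusted p = 3.33e-06), whereas Slc13a3, a transporter of dicarboxylates, rose by 1.70. The summed level of these 44 genes was 134000 to 148000 CPM in dKO_chow and 144000 to 168000 CPM in IL4KO_chow.

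Male-biased liver genes, which depend on the pulses of growth hormone, were lower in 16 of 35 and higher in 2, with a median of -1.05, and all mice were male. The major urinary protein genes were among the largest falls of the whole comparison, although their near-identical copies make the count of each one uncertain. Mup17 was at 3.78, 0.179, 0.292 and 0.934 CPM in dKO_chow and 169, 137, 161 and 137 CPM in IL4KO_chow (log2 fold change of -6.92 ± 1.25 (SE), adjusted p = 0.000275), and Mup1 was at 10.1, 6.09, 2.86 and 6.02 CPM against 269, 144, 162 and 185 CPM (log2 fold change of -4.91 ± 1.13 (SE), adjusted p = 0.002). Mup7 was at 365, 29.8, 64.2 and 183 CPM against 3310, 2780, 2970 and 2520 CPM (adjusted p = 0.0342), and its call ended under limma-voom (0.0661) and when replicate 1 of IL4KO_chow or replicate 2, 3 or 4 of dKO_chow was left out (0.0527 to 0.083). Beyond this family, Ugt2b1, a glucuronosyltransferase, and Sult5a1, a sulfotransferase, fell by 1.98 and 3.68. Of 21 tested female-biased genes 7 (33.3%) were higher and 2 (9.52%) lower, against 23% and 22.2% of all genes. The higher count was 4 when replicate 1 or replicate 3 of IL4KO_chow was left out. Prom1, a surface marker of duct progenitors that is on this list, was at 4.36, 8.04, 6.59 and 3.73 CPM against 0.278, 0.632, 0.143 and 0.975 CPM (log2 fold change of 3.48 ± 0.39 (SE), adjusted p = 9.71e-07), and Slc22a26, an organic anion transporter, rose by 4.37. Cyp2b10, a target of the receptor CAR, was lower (log2 fold change of -2.83 ± 0.59 (SE), adjusted p = 0.000871). Ghr, the growth hormone receptor, fell from 569, 584, 566 and 586 CPM to 302, 333, 294 and 259 CPM (log2 fold change of -0.96 ± 0.12 (SE), adjusted p = 3.65e-06), and Prlr, the prolactin receptor, rose by 0.78.

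The clock genes differed between the groups and IL4KO_chow stood apart from both other chow groups. Of 26 tested, 11 (42.3%) were lower and 5 (19.2%) higher in dKO_chow against IL4KO_chow, with a median of -0.52. Over all genes the shares were 22.2% and 23%, so the higher share was near that over all genes. In IL4KO_chow against WT_chow, where 9.61% of all genes passed the test, 10 of the 26 were higher and 2 lower, with a median of 0.25. Usp2, a deubiquitinase under clock control, was at 7.61, 11.5, 5.19 and 5.09 CPM in dKO_chow, 47.9, 48.2, 47.8 and 40.1 CPM in IL4KO_chow and 9.9, 7.09, 9.69 and 15.2 CPM in WT_chow (log2 fold change of -2.61 ± 0.40 (SE), adjusted p = 6.14e-05 against IL4KO_chow). Tef, a clock output factor, was at 86.1, 110, 70.8 and 66.9 CPM in dKO_chow, 193, 204, 222 and 232 CPM in IL4KO_chow and 91.9, 106, 90.6 and 140 CPM in WT_chow. Arntl, the core factor BMAL1, which peaks opposite to these genes, was at 26.2, 15.6, 25.9 and 21.7 CPM in dKO_chow, 11.5, 10.7, 7.72 and 6.41 CPM in IL4KO_chow and 15.3, 17.5, 22.2 and 12.6 CPM in WT_chow, and Nfil3, a repressor of the same outputs, rose by 0.92. For Usp2, Tef and Arntl the IL4KO_chow libraries lay outside the range of both other groups, whose ranges overlapped. The labels do not give the time of day of sampling.

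Ribosomal protein genes showed a similar arrangement. Of 71 tested, 43 were higher and 1 lower in dKO_chow against IL4KO_chow, with a median of 0.31. Against WT_chow, IL4KO_chow had 34 of them lower and none higher (median -0.35), and dKO_chow had 2 higher and 7 lower (median -0.01). Over all tested genes, 5.93% were higher and 3.68% lower in IL4KO_chow against WT_chow. In dKO_chow against WT_chow these shares were 24.4% and 21.9%. Rpl13a was at 38, 48.7, 38 and 38.4 CPM in dKO_chow, 25.1, 23.3, 25.9 and 21.3 CPM in IL4KO_chow and 31.4, 31.1, 37.1 and 31.9 CPM in WT_chow (log2 fold change of 0.77 ± 0.12 (SE), adjusted p = 3.09e-05 against IL4KO_chow), and Rpl23 rose by 1.03. Rps29 was the lower gene, at 1.29, 1.22, 1.46 and 1.12 CPM against 1.11, 9.39, 1.29 and 1.39 CPM, and it rested on 1 library: without replicate 2 of IL4KO_chow its log2 fold change was 0.019 (adjusted p = 0.973). Proteasome subunits were lower in 19 of 31 and higher in none, with a median of -0.21 (-0.12 to -0.08 with upper quartile factors, library totals or the deposited log2 values), and 7 to 10 were lower under those settings. Psmd14 fell from 49.5, 52.2, 48.2 and 50 CPM to 35.6, 37.7, 30.8 and 35.6 CPM (log2 fold change of -0.52 ± 0.079 (SE), adjusted p = 2.55e-05). Of 42 genes of the unfolded protein and integrated stress response, 6 (14.3%) were higher and 7 (16.7%) lower, both under the 23% and 22.2% of all genes. With library totals alone 11 were higher and 4 lower, and without replicate 3 of dKO_chow 4 were lower. Herpud1, which serves the removal of misfolded proteins, was at 250, 223, 269 and 252 CPM against 731, 653, 587 and 717 CPM (log2 fold change of -1.44 ± 0.18 (SE), adjusted p = 4.53e-06). Cth, an enzyme of cysteine synthesis, fell by 1.48. Of 21 heat shock genes 8 were lower (4 with library totals alone), among them Hspd1 (-0.51), and 1 was higher, Cryab (0.93). In 40 cell cycle genes 10 (25%) were higher and 3 (7.5%) lower, against 23% and 22.2% of all genes, with 5 higher after thinning and 6 without replicate 3 of dKO_chow. Ccnd2, a cyclin of the G1 phase, rose by 1.45 and Top2a, a topoisomerase of dividing cells, by 1.63, while Rrm2, a subunit of ribonucleotide reductase, fell by 1.55.

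Several of the largest differences lay in genes outside these themes. Erdr1 was at 22.5, 14.8, 12.8 and 13.2 CPM in dKO_chow and at 0 in all 4 IL4KO_chow libraries, at least 189-fold higher, and at 3.61, 3.1, 5.53 and 7.33 CPM in WT_chow. Its position at the end of the sex chromosomes and its repeated sequence make its count uncertain. Tmem181b-ps, a pseudogene that may share reads with its parent, was at 4.21, 4.75, 4.73 and 4.2 CPM in dKO_chow, 0, 0, 0.143 and 0 CPM in IL4KO_chow and 2.31, 2.53, 0.996 and 2.35 CPM in WT_chow. For Erdr1 and Tmem181b-ps every IL4KO_chow library was below every library of both other groups. Gldn, gliomedin, was at 0 in all IL4KO_chow libraries and at 4.74, 6.75, 4.08 and 1.73 CPM in dKO_chow, at least 55.8-fold higher. Tmc5, a channel-like protein of epithelia, was at 8.67, 6.21, 6.71 and 3.59 CPM against 0, 0, 0 and 0.279 CPM (log2 fold change of 6.60 ± 1.95 (SE), adjusted p = 0.0143, but 0.112 with DESeq2). By their CPM, Gldn and Tmc5 passed the filter on low counts only through dKO_chow and so had to be higher there. The fold bound of Gldn and the p-values of Tmc5 are therefore descriptions alone. On the lower side, Trhde, a peptidase picked after its values were seen, was at 0 in all dKO_chow libraries and at 2.5, 1.08, 1.14 and 1.53 CPM in IL4KO_chow, at least 49.9-fold lower. Slc2a4, the insulin-responsive transporter GLUT4, was at 0.431, 0.597, 0.0584 and 0.14 CPM against 3.71, 9.12, 3.15 and 6.55 CPM (log2 fold change of -4.04 ± 0.42 (SE), adjusted p = 5.53e-07), and Tgoln2, a protein of the trans-Golgi network, at 2.25, 0.687, 1.69 and 0.14 CPM against 18.2, 5.51, 16.3 and 31.2 CPM (log2 fold change of -3.93 ± 0.83 (SE), adjusted p = 0.000979). In WT_chow, Slc2a4 was at 1.2, 0.652, 0.362 and 0.846 CPM and Tgoln2 at 2.31, 6.28, 1.63 and 5.92 CPM. For both genes WT_chow overlapped dKO_chow, and for Slc2a4 every IL4KO_chow library was above every library of both other groups.

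**Figure D4:**
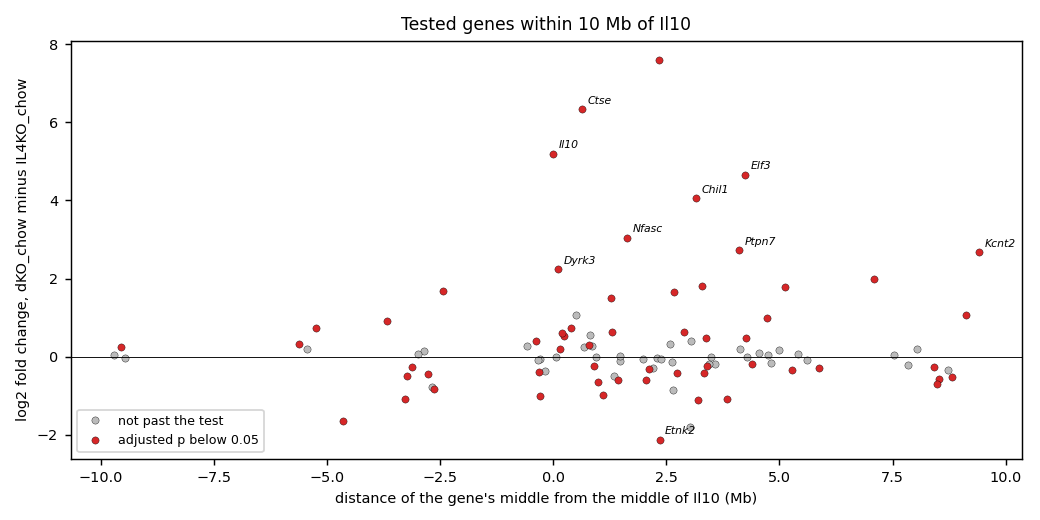
Log2 fold change of dKO_chow against IL4KO_chow for the tested genes within 10 Mb of Il10, against the distance of each gene's middle from the middle of Il10. Red points passed the test at an adjusted p below 0.05 and grey points did not, and genes called at 4-fold or more are named, with 1 exception. Of the genes named within 5 Mb of Il10, Etnk2 is the 1 that is lower.

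Some of these genes lie near Il10, which is on chromosome 1 at 131019845 to 131024970 of GRCm38. Within 5 Mb of it, 44 of the other 78 tested genes (56.4%) were called and 8 (10.3%) were called at 4-fold or more, against 45.3% and 5.14% of all 12312 genes with a position. Around Il4, on chromosome 11 at 53612460 to 53618665, 38 of 91 (41.8%) were called and 4 (4.4%) at 4-fold or more. In order along the chromosome, 7 of the 8, named after their values were seen, were Dyrk3, Ctse, Nfasc, Etnk2, Chil1, Ptpn7 and Elf3, all higher but Etnk2. Ctse, cathepsin E, lies 0.64 Mb from Il10 and was at 20.9, 23.4, 25.8 and 21.5 CPM in dKO_chow, 0.556, 0.181, 0 and 0.279 CPM in IL4KO_chow and 71.9, 63.1, 73.9 and 62 CPM in WT_chow (log2 fold change of 6.33 ± 0.62 (SE), adjusted p = 8.68e-07 against IL4KO_chow). Etnk2, an ethanolamine kinase 2.35 Mb away, was at 132, 115, 116 and 118 CPM in dKO_chow, 550, 534, 489 and 517 CPM in IL4KO_chow and 242, 254, 256 and 198 CPM in WT_chow (log2 fold change of -2.12 ± 0.22 (SE), adjusted p = 8.5e-07 against IL4KO_chow).

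**Figure D5:**
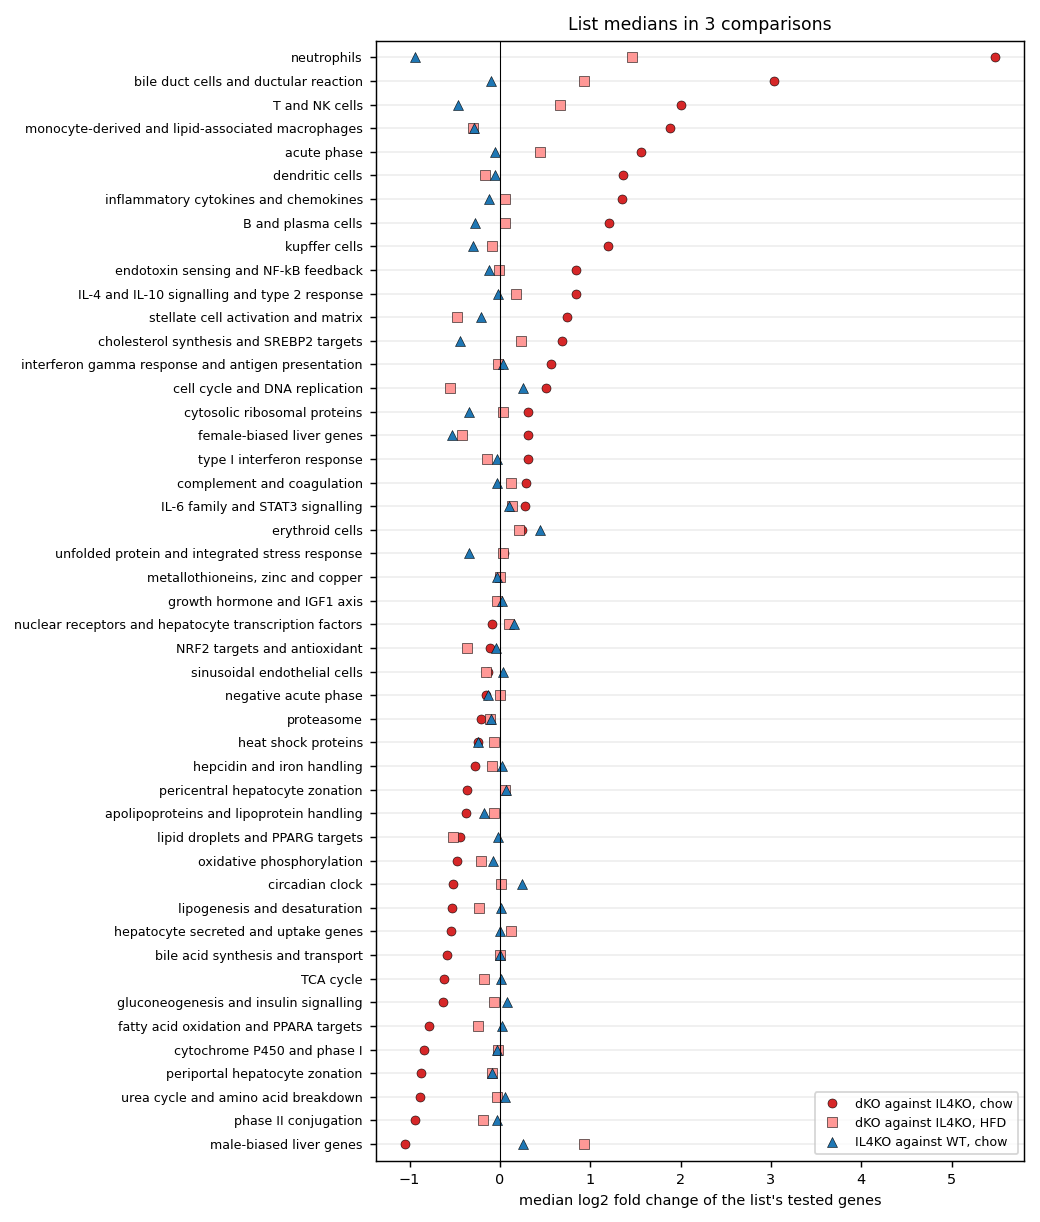
Median log2 fold change of each list with at least 10 tested genes in 3 comparisons: dKO against IL4KO on chow (circles), the same genotypes on the high-fat diet (squares), and IL4KO against WT on chow (triangles). Lists are ordered by the first. The median of the neutrophil list is 5.48 on chow and 1.46 on the high-fat diet, and that of urea cycle and amino acid breakdown is -0.89 and -0.03.

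The differences were far fewer on the high-fat diet, in other mice of the same genotypes. There, 323 genes (2.51%) passed the test between dKO_HFD and IL4KO_HFD, 122 higher and 201 lower. The count ranged from 39 without replicate 2 of IL4KO_HFD to 1241 without its replicate 3, and it was 118 without replicate 4 of dKO_HFD and 4 when the compared groups were fitted alone. The difference between the diets was tested itself: 3144 genes (24.4%) had a dKO minus IL4KO difference on chow that departed from that on the high-fat diet, 1508 (11.7%) upward and 1636 (12.7%) downward. That count ranged from 1293 without replicate 2 of IL4KO_HFD to 4190 without replicate 4 of dKO_HFD. By list, the departure was called downward in 48 of 62 genes of urea cycle and amino acid breakdown, in 28 of 54 of fatty acid oxidation and in 22 of 53 of oxidative phosphorylation. Without replicate 2 of IL4KO_HFD these counts were 40, 13 and 9, and without replicate 4 of dKO_HFD they were 52, 37 and 32. The fatty acid oxidation count was also 16 without replicate 2 of dKO_HFD and 18 without its replicate 1, and the count of oxidative phosphorylation 14 without replicate 2. The departure was called upward in 26 of 35 genes of monocyte-derived macrophages and in 33 of 61 stellate cell and matrix genes, and these counts rested on replicate 2 of IL4KO_HFD, without which they were 8 and 9. It was called upward in 14 of 35 acute phase genes and 9 of 26 neutrophil genes, against 7 and 3 without replicate 2 of IL4KO_HFD and 25 and 14 without replicate 4 of dKO_HFD. The neutrophil counts without replicates 1, 2 and 3 of dKO_HFD were 6, 5 and 6. The neutrophil median of 1.46 on the high-fat diet was 2.51 without replicate 2 of IL4KO_HFD, 0.96 without its replicate 3 and 0.03 without replicate 4 of dKO_HFD.

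Single genes show how the diets departed. Cps1 was at 4110, 5580, 4790 and 3410 CPM in dKO_HFD and 3670, 1880 and 4290 CPM in IL4KO_HFD, so that its log2 fold change was 0.45 there and -1.20 on chow (difference -1.65 ± 0.28 (SE), adjusted p = 0.000977). Car3 changed by 0.02 on the high-fat diet against -3.97 on chow (difference -3.99 ± 0.45 (SE), adjusted p = 0.000164), and Tnfaip3 by -0.58 against 1.38 (difference 1.96 ± 0.27 (SE), adjusted p = 0.000349). Otc, Aadat, an aminoadipate aminotransferase, and Fam214a had differences of -1.28, -1.73 and -2.12 on the log2 scale, while Dpysl2, a regulator of microtubules, Dyrk3, a kinase, and Ctsa, a lysosomal carboxypeptidase, had 1.79, 2.53 and 0.80. Saa2 was at 66, 23.9, 33.2 and 1210 CPM in dKO_HFD and 44.1, 79.6 and 169 CPM in IL4KO_HFD, with 1 dKO_HFD library far above the others, and its difference between diets did not pass the test (adjusted p = 0.211), except without replicate 4 of dKO_HFD (0.012). The other differences given for these genes passed the test without any single high-fat diet library.

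A smaller set was called on both diets. In all, 193 genes were called on both, 176 of them in the same direction, which is 3.02% of the genes called on chow and 54.5% of those called on the high-fat diet. Without replicate 2 of IL4KO_HFD 37 genes were called on both, without its replicate 1 50, without its replicate 3 549, and without replicate 2 or 4 of dKO_HFD 84 each. The set of 193 held Il10 and its neighbour Ctse, with log2 fold changes on the high-fat diet of 6.45 and 6.50. It also held Erdr1, Tmem181b-ps, Slc2a4 and Ugt1a9. The calls of Ctse, Tmem181b-ps and Slc2a4 on the high-fat diet held without any single library of that diet's groups. Those of Il10 and Erdr1 ended without replicate 1 or 2 of IL4KO_HFD or replicate 4 of dKO_HFD (adjusted p = 0.0687 to 0.209), that of Erdr1 also without replicate 2 of dKO_HFD (0.0582), and that of Ugt1a9 without replicate 1 of IL4KO_HFD (0.0516). Duct genes on the high-fat diet had 9 of 35 higher and 1 lower with a median of 0.94. Over all tested genes 0.946% were higher and 1.56% lower there. Without replicate 1 or replicate 2 of IL4KO_HFD 2 duct genes were higher, and without replicate 4 of dKO_HFD 5 were, with a median of 0.58. Epcam was at 3.54, 2.88, 3.44 and 4.61 CPM in dKO_HFD and 0.8, 1.34 and 0.675 CPM in IL4KO_HFD (log2 fold change of 1.90 ± 0.37 (SE), adjusted p = 0.0102), and Krt19 and Cd24a rose by 1.88 and 1.97. Without replicate 1 of IL4KO_HFD none of the 3 was called (0.0516 to 0.145), without its replicate 2 Epcam alone was (0.0266), and the call of Krt19 also ended without replicate 3 of IL4KO_HFD or replicate 3 or 4 of dKO_HFD (0.0514 to 0.0823). For all 3 of these duct genes the rise on chow was larger than that on the high-fat diet (differences of 2.0, 2.55 and 1.94, adjusted p = 0.0121, 0.016 and 0.0127), a difference that did not pass the test for any of them without replicate 2 of IL4KO_HFD (0.112, 0.207 and 0.0865).

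Set against wild type mice, dKO_chow also stood apart. In dKO_chow against WT_chow, which shares the dKO_chow libraries with the main comparison, 5966 genes (46.3%) passed the test, 3148 higher and 2818 lower. Over all tested genes 24.4% were higher and 21.9% lower. The acute phase list had 28 higher and 2 lower there, with a median of 1.83. Neutrophil genes had 24 of 26 higher. As 12 of the 26 passed the filter only through dKO_chow, the neutrophil counts against WT_chow are descriptions alone. IL4KO_chow against WT_chow, with 1239 genes called, had 1 acute phase gene higher and none lower (median -0.05), no neutrophil gene in either direction, and medians of 0.02 for fatty acid oxidation and 0.05 for urea cycle and amino acid breakdown. In that comparison 5.93% of all tested genes were higher and 3.68% lower.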

How the data were processed

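Polyadenylated RNA of 23 livers was sequenced after a strand-preserving library preparation, per the labels' protocols. The authors used bcl2fastq 2.16, TopHat2 2.0.8 and Partek with build mm10, per the submitters' processing notes. How strand and reads with several matches were treated, and which annotation was used, is not given in the sources used here. Deposited estimated counts per gene symbol, of which 93.7% to 97% were within 0.01 of a whole number, were rounded. The authors' deposited table of log2 values (14078 genes) served as an alternative only. Samples were grouped by the genotype and diet in their labels.

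Of 24440 genes, 6318 were at 0 in every library and 12891 passed edgeR's filterByExpr by group. All 23 libraries were fitted together with edgeR 4.0.16 in R 4.3.3 (group means, trimmed-mean scaling, robust quasi-likelihood test, 17 residual degrees of freedom, two-sided), and p-values were adjusted by Benjamini and Hochberg over all tested genes at 0.05. The fit was tested on simulated data. Total counts per library, given in the report, limit genes of low level, and a gene at 0 in a whole group was given a floor of 3 counts over that group. RefSeq tables of GRCm38.p6 gave positions for 12312 tested genes and the promoters.

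The 52 gene lists hold 1868 entries, of which 15 were not found in the counts. Genes were named by rule: Il4 and Il10; of the called genes without overlap, the 12 largest folds per direction (where one group averaged 2 CPM or more) and the 8 largest differences in CPM; up to 4 called members of each list in its main direction and up to 2 in the other; and up to 6 per direction by the difference between diets. Not all genes that the rule selects are reported here. The comparison and the lists were chosen with earlier results of these data known. Alternatives were other scalings and filters, DESeq2 1.42.0, limma 3.58.1 with voom or on the deposited log2 values, a fit without robust estimation, a fit of the compared groups alone, thinning to the smallest library, and leaving out each library.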

Additional observations from a re-analysis of the deposited data

Results flagged for a closer look

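Of 432 sets of 4 libraries examined, each a gene's CPM or a list's level in dKO_chow or IL4KO_chow, 25 had 1 library far from the other 3 by Dixon's criterion; chance gives about 1 in 20. In replicate 3 of IL4KO_chow, Saa1 was at 712 CPM (22.1 to 104 in the other 3), Saa2 at 454 CPM (6.69 to 71.7), Lcn2 at 99.7 CPM (6.13 to 15.2) and S100a8 at 3.15 CPM (0 to 0.139). The neutrophil list of that library was at a level of -0.907 (others -2.52 to -2.34), its glucose list at 0.164 (others 0.314 to 0.343), and Cldn2 at 79.5 CPM (60.5 to 62.8). In replicate 4 of IL4KO_chow, the fatty acid oxidation list was at 0.66 (others 0.348 to 0.394). That library also stood apart for Rsad2 at 11.1 CPM, Cidec at 21.3 CPM, Slc27a2 at 1920 CPM, Npc1 at 221 CPM and, on the low side, Usp2 at 40.1 CPM. Replicate 1 of IL4KO_chow was high for Cfp at 22.2 CPM, Lyz2 at 46.9 CPM and Clec4f at 101 CPM, and replicate 2 for Rps29 at 9.39 CPM (1.11 to 1.39 in the others).

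In dKO_chow, replicate 2 was high for Cd3g at 2.51 CPM, Krt19 at 12.6 CPM and Rpl13a at 48.7 CPM. Replicate 3 was high for Cyp4a10 at 55 CPM and Dyrk3 at 5.31 CPM and low for Cyp2c70 at 523 CPM. Replicate 1 was high for Cat at 1640 CPM and Etnk2 at 132 CPM.

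The difference between the genotypes itself differed between the diets for 3144 genes by the interaction test. Among the 183 tested genes whose values were tabulated for the report, 126 passed it, 59 upward and 67 downward. Over all tested genes 24.4% passed. Some of the 183 were picked by this very test and most others by their difference on chow, so a larger share was built in.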

How the results depend on the processing

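No paired analysis was possible because the labels give no replicate numbers that the groups share. The number of genes called in the main comparison was 4284 to 6164 under other scalings, filters, tests and thinning, 5071 to 5445 without single libraries of its groups (higher 2368 to 2794, lower 2522 to 2831), and no gene called in it was called in the opposite direction by any of them. With library totals only, 1778 genes were lower. On the high-fat diet, the count was 586 with DESeq2, 207 with limma-voom, 143 after thinning, 4 with the compared groups alone, and 39 to 1241 without single libraries. It was 93 without replicate 1, 39 without replicate 2 and 1241 without replicate 3 of IL4KO_HFD, and 106 without replicate 2 and 118 without replicate 4 of dKO_HFD. The interaction count was 1895 after thinning and 1293 to 4190 without single libraries. IL4KO_chow against WT_chow gave 675 after thinning and 828 to 1139 without single libraries, and dKO_chow against WT_chow gave 5196 to 5660. With library totals only, 3 list medians that exceeded the spread of their list's level within the groups changed sign. They were NRF2 targets and antioxidants (0.022), nuclear receptors and hepatocyte transcription factors (0.0424) and sinusoidal endothelial cells (0.00304). Changes of sign in medians smaller than that spread were not counted. The log2 fold change of Rps29 ran from -1.75 to 0.019 without single libraries, with the change of sign without replicate 2 of IL4KO_chow. Of the values for single genes, 5307 kept their direction and side of the threshold, 92 no longer passed it and 3 passed it newly. Where no cause is named, the cause was not tested. Depth limits the lymphocyte, dendritic cell and cell cycle lists, whose counts dropped after thinning as given beside them.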
